A study of Mus musculus with 48 samples.

Results

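The genes examined were 10 histone lysine demethylases encoded on autosomes: Kdm1a, Kdm2a, Kdm2b, Kdm3a, Kdm3b, Kdm4a, Kdm4c, Kdm5a, Kdm5b and Kdm6b. They were taken by gene symbol from the 2 bulk RNA-seq tables and by Ensembl ID from the 10x Genomics table. All 10 were found in each, among 22173 genes in the table of developmental stages, 13682 in the table of induced cells and 32285 in the single-cell table. All 10 also passed the filters on low values, which left 16398 genes tested for the stages, 11512 for the days of induction and 10644 for the treatments.

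Histone lysine demethylases remove methyl groups from histone tails, and so counter the methyltransferases that write active and repressive chromatin marks. Kdm1a is a FAD-dependent amine oxidase that works within the CoREST complex on H3K4me1 and H3K4me2. The other 9 carry a JmjC domain and belong to the iron- and alpha-ketoglutarate-dependent dioxygenases. Vitamin C helps to keep the iron of such enzymes in its reduced form, and their activity needs oxygen. Within the JmjC group, Kdm2a and Kdm2b act on H3K36, Kdm3a and Kdm3b on H3K9me1 and H3K9me2, Kdm4a and Kdm4c on H3K9me3 and H3K36me3, Kdm5a and Kdm5b on H3K4me3 and H3K4me2, and Kdm6b on H3K27me3. The measurements below are of their transcripts, not of enzyme activity or of histone marks.

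The study asked how gonadal somatic cells (GSCs) change with age and whether embryonic stem cells (ESCs) can be turned into GSC-like cells (GSCLCs) by small molecules. The GSCs came from C57BL/6 female gonads at E12.5, E13.5 and E16.5 and from ovaries 6 weeks after birth (P6w), with 2 libraries each; for the embryonic cells, magnetic sorting kept those without the germ cell antigen SSEA1. A second set of E12.5 gonadal cells (E12.5_GC, 3 libraries) was deposited with the induced cells, and a shared sequencing run is not stated. Female ESCs were maintained on mouse embryonic fibroblast feeders and cultured in 2i plus leukemia inhibitory factor (LIF). For induction, per the paper, they were separated from feeders, moved to medium without 2i and LIF, and seeded on fibronectin. They were then given vitamin C (Vc), AM580, a selective agonist of retinoic acid receptor alpha, or both together (V580). Untreated (Con), Vc, AM580 and V580 cells were sequenced after 24 h and 48 h, with 2 libraries each. V580 cells were also sequenced at days 4, 6, 8 and 10 (V580_D4 to V580_D10), with 3 libraries each, and V580_D6 cells were deposited once more as 1 10x sample. The labels do not say whether libraries of a group came from separate animals or cultures, so that p values measure only the spread between these libraries, which may be technical.

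The stage libraries held 12694769 to 22259044 counts, given below as CPM, counts scaled to library size. The induced cells and E12.5_GC were given as FPKM, which are also scaled to transcript length, and the step size of those values put the libraries at about 16440000 to 28300000 fragments. Although labelled female, both E12.5 stage libraries held reads of Y-linked genes, with a sum of 8.05 to 8.8 CPM over 3 genes against 0 to 0.228 CPM in all later libraries. The E13.5 against E12.5 changes followed gene length, with a Spearman correlation of -0.494 over 16169 genes, so that longer genes were lower at E13.5. For E16.5 against E13.5 it was 0.335, and for the other 3 stage comparisons it lay between -0.0809 and -0.00833. The 10 demethylase genes have 5179 to 16555 bases of exon, above the median of 4135 among tested genes. The first E16.5 library shares the tag L5 in its label with E12.5 and E13.5, and the second shares L1 with P6w. These 2 libraries differed from each other more than those of any other stage, with a chi-square of 38.1 per degree of freedom against 6.04 to 6.95, and their deviations from the stage mean followed gene length at 0.335 and -0.335. The tag and the stage cannot be told apart for P6w against E12.5. In bulk libraries, fewer cells of a type and less RNA per cell cannot be told apart.

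The 10 genes lie on 7 chromosomes of GRCm38 and differed widely in level. Per kilobase of exon, averaged over the 4 stages, Kdm6b was highest at 23.6 CPM per kb and Kdm4c lowest at 1.93 CPM per kb. The mean of Kdm6b was carried by E16.5, at 56.1 CPM per kb against 9.76 at E13.5, and at E12.5 Kdm3a, at 18.2 CPM per kb, lay above it. Over the 13 groups of the FPKM table, Kdm1a had the highest mean at 45.1 FPKM and Kdm5a the lowest at 8.28 FPKM. In between in that table stood Kdm4a at 20.8, Kdm2b at 18.8, Kdm5b at 18.2, Kdm6b at 17.2, Kdm4c at 15.5, Kdm3a at 12.4, Kdm3b at 9.89 and Kdm2a at 8.65 FPKM. The ranges that follow cover both the treatments and the days with E12.5_GC, and no test compared these sets. The most variable member was Kdm4c, whose group means ran 8.30-fold from 3.40 FPKM in E12.5_GC to 28.2 in Con_48h. Within the treatments they ran from 16.9 to 28.2 FPKM, and within the days and E12.5_GC from 3.40 to 6.62. Kdm3a followed with 7.24-fold, from 4.69 FPKM in V580_D4 to 34.0 in E12.5_GC, and Kdm2b with 5.38-fold, from 5.79 in V580_D10 to 31.1 in Vc_24h. The group means of the other 7 genes varied only 1.62- to 2.29-fold. Over the 22 comparisons of 2 groups, Kdm3a passed the test most often, in 18, and Kdm2a and Kdm5a least often, in 7 each.

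During gonadal development, Kdm6b rose more than 4-fold at E16.5 and fell back in the adult ovary, Kdm5a and Kdm5b had a smaller peak at the same stage, and Kdm3a dropped to its lowest level at P6w. Compared with E12.5, 8 of the 10 genes were lower and 0 higher at E13.5 (edgeR, BH adjusted p below 0.05), where 22.1% of all tested genes were lower, 23.8% higher and 45.9% either. Of the 10, 3 were higher and 3 lower at E16.5 than at E12.5, against 20.5% and 17.1% of all genes (37.6% together). In the adult, 1 was higher and 7 lower than at E12.5, against 25.4% and 27.5% (52.9% together). These 3 comparisons share the E12.5 libraries. From E13.5 to E16.5, 6 rose and 0 fell, against 28.7% and 25.4% (54.1% together), and from E16.5 to P6w, 6 fell and 0 rose, against 29.8% and 26.3% (56.1% together). The median log2 change of the 10 genes against E12.5 was -0.55 for E13.5, -0.04 for E16.5 and -0.60 for P6w, beside 0.03, -0.01 and -0.04 over all tested genes.

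**Figure D1:**
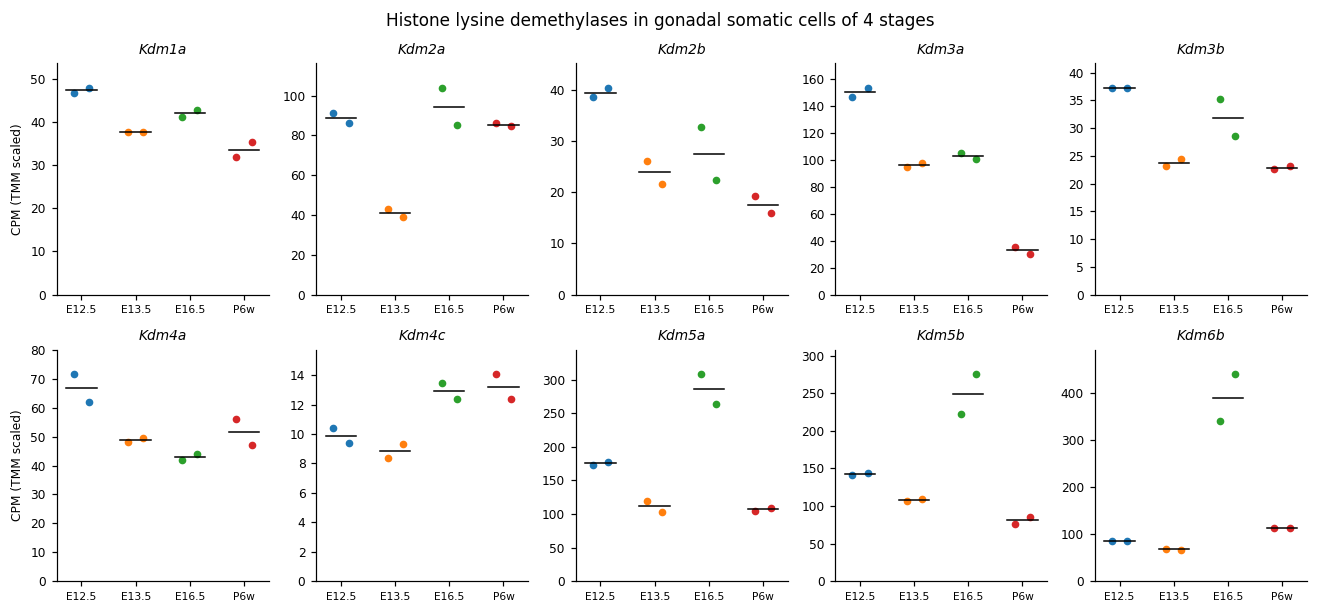
CPM of the 10 demethylase genes in each of the 8 stage libraries (points) with the stage mean (line), on a scale of its own per gene. Kdm6b stands at 341 and 439 CPM at E16.5, above 66.8 to 113 CPM in the other stages, and Kdm3a descends to 30.2 and 35.2 CPM at P6w.

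Kdm6b (chr11:69398508-69413675, minus strand) encodes the H3K27me3 demethylase that opens Polycomb-silenced genes during differentiation. The E12.5 libraries had 85.6 and 85.1 CPM, the E13.5 libraries 68.9 and 66.8, the E16.5 libraries 341 and 439, and the P6w libraries 113 and 112. Both E16.5 libraries lay far above all others, and no 2 stages overlapped. The log2 change was 2.19 ± 0.13 (SE) from E12.5 to E16.5 (adjusted p = 1.61e-08) and -1.79 ± 0.13 from E16.5 to P6w (adjusted p = 2.02e-08). Within tag L5, using only the first E16.5 library, the rise over E12.5 was 2.00, and within L1 the fall to P6w was -1.96. The P6w level stayed above E12.5 by 0.40 (adjusted p = 0.016), and this smaller difference lost its call when any 1 of the 4 libraries was left out.

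Kdm5a and Kdm5b, JmjC demethylases of H3K4, peaked at the same stage. Kdm5a (chr6:120364124-120444574, plus strand), first known as a retinoblastoma-binding protein, had 177 and 173 CPM in the E12.5 libraries, 120 and 104 in the E13.5 ones, 308 and 263 in the E16.5 ones, and 105 and 109 in the P6w ones. Kdm5b (chr1:134560171-134635285, plus strand), a repressor tied to proliferation and cell fate, had 144 and 141, 106 and 109, 222 and 275, and 76.3 and 85.1 CPM in the same order. For both genes the E16.5 libraries were the highest of the 8, and E12.5 stood above E13.5 and P6w. Kdm5a was higher at E16.5 than at E12.5, by 0.70 ± 0.12 on the log2 scale, and lower at P6w than at E12.5, at -0.71 ± 0.12 (adjusted p = 0.00038 and 0.000191). Kdm5b differed by 0.80 ± 0.13 and -0.82 ± 0.13 (adjusted p = 0.000161 and 7.21e-05). Within the shared tags, the rise from E12.5 to E16.5 was 0.81 for Kdm5a and 0.64 for Kdm5b, and the fall from E16.5 to P6w -1.30 and -1.77.

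Other cell types also moved at E16.5. The summed CPM of 8 macrophage and mast cell markers was 340 to 349 at E16.5 against 49.5 to 154 in the other stages, and that of 6 interstitial markers 2653 to 2874 against 318 to 847. The 8 germ cell markers summed to 135 to 169 CPM at E16.5 against 8.57 to 9.44 at E12.5 and 24.1 to 26.9 at E13.5, and 6 of the 8 were called higher than at E12.5. At P6w they summed to 7.11 to 8.32, with Tex11 and Rhox13 at 0. Their part in the rise of Kdm5a, Kdm5b and Kdm6b was not tested.

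Kdm3a (chr6:71588972-71632990, minus strand), an H3K9 demethylase that is a known target of hypoxia-inducible factors and is needed for activation of Sry in the male gonad, fell in steps. It had 153 and 146 CPM in the E12.5 libraries, 94.5 and 97.4 in the E13.5 ones, 105 and 100 in the E16.5 ones, and 35.2 and 30.2 in the P6w ones. All embryonic libraries lay above both adult ones, while E13.5 and E16.5 lay close together. The P6w level was lower than E12.5 by -2.20 ± 0.13 on the log2 scale (adjusted p = 1.54e-09) and lower than E16.5 by -1.65 ± 0.13 (adjusted p = 3.23e-08). Its close relative Kdm3b (chr18:34777047-34838660, plus strand) had 37.2 and 37.3, 23.1 and 24.4, 35.3 and 28.5, and 22.5 and 23.2 CPM in the same order. Kdm3b was lower at P6w than at E12.5 by -0.70 ± 0.16 (adjusted p = 0.00156). Erythroid markers fell beside these genes, with 10 of 10 called lower at P6w and a sum of 266 to 296 CPM against 14362 to 15756 at E12.5, and their part was not tested.

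The H3K36 demethylases took different courses. Kdm2a (chr19:4314419-4398285, minus strand), which binds CpG islands, had 86.3 and 91.3 CPM in the E12.5 libraries, 42.9 and 38.8 in the E13.5 ones, 104 and 85.1 in the E16.5 ones, and 86.3 and 84.6 in the P6w ones. Only the E13.5 libraries stood apart, lower than E12.5 by -1.12 ± 0.13 (adjusted p = 1.63e-05). Kdm2b (chr5:122870665-122989823, minus strand), which brings the variant PRC1.1 complex to CpG islands, had 40.3 and 38.5, 26.1 and 21.6, 32.7 and 22.3, and 19.2 and 15.9 CPM in the same order. It ended lowest, below E12.5 by -1.17 ± 0.20 at P6w (adjusted p = 0.000134). The 2 E16.5 libraries of Kdm2b disagreed. Its change from E12.5 to E16.5 was -0.51 (adjusted p = 0.0415), -0.82 without the first E16.5 library and -0.27 without the second (no longer called). That call was also lost without the first or second E12.5 library, at -0.49 and -0.55. Its change from E16.5 to P6w was -0.65, and -0.35 without the first E16.5 library (no longer called). It was -0.52 without the second P6w library, also no longer called. Kdm3b depended on the same first E16.5 library among others, with 0.43 from E13.5 to E16.5 and 0.27 without it. From E16.5 to P6w it had -0.48, and -0.32 without that library, and neither change was called without it. The former call was also lost without the first or second E13.5 library, at 0.38 and 0.45. The latter was also lost without the first or second P6w library, at -0.48 and -0.50.

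Kdm4a, Kdm4c and Kdm1a changed least. Kdm4a (chr4:118136957-118180043, minus strand) had 62 and 71.5 CPM in the E12.5 libraries, 48.3 and 49.6 in the E13.5 ones, 41.8 and 43.9 in the E16.5 ones, and 56.1 and 47 in the P6w ones. It was lower than E12.5 by -0.64 ± 0.14 at E16.5 (adjusted p = 0.00209). At P6w the difference was -0.37 (adjusted p = 0.0344), a call lost without either E12.5 library or the second P6w library. Kdm4c (chr4:74242497-74405860, plus strand), the scarcest of the 10, had 8.38 to 14.1 CPM in all 8 libraries and passed the test only from E13.5 to E16.5, at 0.55 ± 0.19 (adjusted p = 0.0268), a call that DESeq2 did not make and that was lost without either E13.5 library or the first E16.5 library. Kdm1a (chr4:136550540-136602723, minus strand) had 48 and 46.9, 37.6 and 37.6, 41.3 and 43, and 31.9 and 35.5 CPM in the same order of stages. It was called lower at P6w than at E12.5, by -0.50 (adjusted p = 0.00682), and lost the call without the first library of either stage.

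The fall of 8 genes at E13.5 was uneven in strength. Beside Kdm2a, the log2 changes were -0.73 ± 0.19 for Kdm2b, -0.64 ± 0.12 for Kdm3a, -0.65 ± 0.15 for Kdm3b and -0.65 ± 0.12 for Kdm5a (largest adjusted p = 0.00551). They were -0.45 for Kdm4a, -0.41 for Kdm5b and -0.33 for Kdm6b (adjusted p = 0.0149, 0.0157 and 0.0482). The calls of Kdm5b and Kdm6b were lost without any 1 of the 4 libraries, that of Kdm4a without any but the first E12.5 library, and that of Kdm2b without the second E13.5 library, where it was -0.58. The picture changed when gene length was entered as a term of the model. With that term only Kdm2a remained lower, by -0.34, while Kdm5b was called higher by 0.45, and Kdm3b at 0.12, Kdm5a at 0.12 and Kdm6b at 0.04 changed sign without passing the test. The E16.5 rise of Kdm6b over E12.5 was 2.17 with the term, that of Kdm5a 0.72 and that of Kdm5b 0.87, and the P6w fall of Kdm3a -1.97. From E13.5 to E16.5 the term gave 4 genes higher and 3 lower in place of 6 and 0, with Kdm2b at -0.43, Kdm3a at -0.39 and Kdm4a at -0.48 now called lower. Kdm6b, Kdm5a, Kdm5b and Kdm2a stayed called higher, at 2.14, 0.61, 0.42 and 0.45 beside 2.52, 1.35, 1.21 and 1.21 without it. For P6w against E12.5 it gave 3 higher and 6 lower in place of 1 and 7, with Kdm2a at 0.31 and Kdm4c at 0.52 now called higher and Kdm4a at -0.28 no longer called. There Kdm5a moved from -0.71 to -0.35, Kdm5b from -0.82 to -0.43 and Kdm3b from -0.70 to -0.34 (adjusted p = 0.0115, 0.0351 and 0.0498 with the term). For P6w against E16.5 it gave 1 higher and 4 lower in place of 0 and 6. Liver markers also rose at E13.5, with 8 of 8 called higher and a sum of 192 to 199 CPM against 5.14 to 6.39 at E12.5, and their part was not tested.

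Over the days of V580 induction, Kdm2b fell steadily, Kdm1a fell more gently, and Kdm3a rose and fell again. From D4 to D6, 3 of the 10 genes rose and 2 fell (limma on log2 of FPKM plus 1, BH adjusted p below 0.05), where 21.9% and 23% of tested genes did (44.9% together). From D6 to D8, 2 rose and 2 fell, against 20.3% and 20.9% (41.1% together). From D8 to D10, 4 fell and 0 rose, against 15% and 19.5% (34.5% together). Between D4 and D10, which share libraries with those steps, 1 was higher and 3 lower, against 31.3% and 33.1% (64.5% together). The fold changes below are on the log2 scale of FPKM plus 1, which understates changes at low levels.

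**Figure D2:**
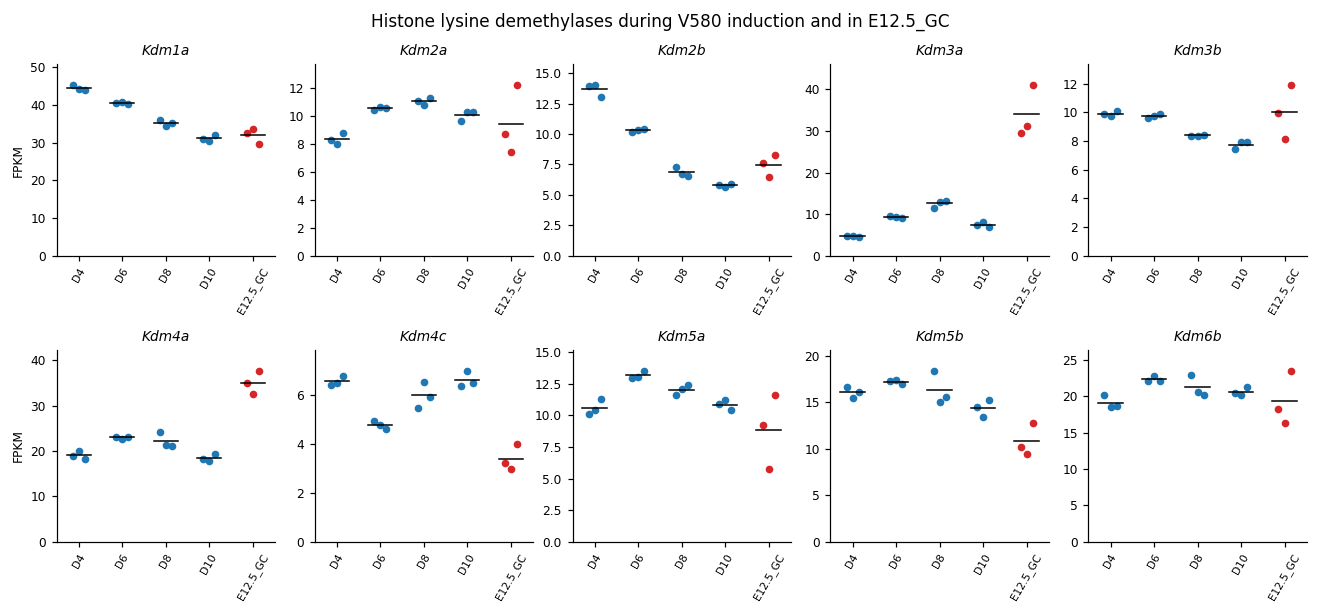
FPKM of the 10 genes in the E12.5_GC libraries and at V580_D4, D6, D8 and D10 (points, 3 libraries each) with group means (line), on a scale of its own per gene. Kdm2b declines from 13 to 14 FPKM at D4 to 5.66 to 5.93 at D10, and Kdm3a lies at 29.5 to 41.1 FPKM in E12.5_GC, above 4.5 to 13.2 in every V580 library.

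Kdm2b was measured at 14, 14 and 13 FPKM at D4, 10.2, 10.3 and 10.4 at D6, 7.29, 6.74 and 6.59 at D8, and 5.78, 5.66 and 5.93 at D10. Each day lay wholly below the one before it. The total change was -1.11 ± 0.072 (adjusted p = 4.58e-09), of which -0.38 fell between D4 and D6, -0.52 between D6 and D8 and -0.21 between D8 and D10. The last step (adjusted p = 0.0337) was lost when any of 5 of the 6 libraries was left out. Kdm1a, whose product also removes H3K4 methylation at enhancers of pluripotency genes, was measured at 45.4, 44.3 and 44 FPKM at D4, 40.6, 40.8 and 40.3 at D6, 36.1, 34.4 and 35.2 at D8, and 31, 30.4 and 32 at D10. These values also fell without overlap between days, by -0.50 ± 0.055 in all (adjusted p = 1.49e-06). Summed cell cycle markers went from 220 to 226 FPKM at D4 to 113 to 123 at D10 alongside both genes, and their part was not tested.

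Kdm3a was measured at 4.8, 4.77 and 4.5 FPKM at D4, 9.47, 9.39 and 9.18 at D6, 11.6, 13 and 13.2 at D8, and 7.36, 8.05 and 7.02 at D10. No 2 days overlapped. The log2 changes were 0.86 ± 0.097 from D4 to D6 (adjusted p = 5.01e-06), 0.39 from D6 to D8 (adjusted p = 0.00516) and -0.68 from D8 to D10 (adjusted p = 0.000115). Of 20 hypoxia-responsive genes, chosen because Kdm3a is a hypoxia-inducible factor target, 9 rose and 4 fell from D4 to D6, 14 rose and 0 fell from D6 to D8, and 14 rose and 1 fell from D8 to D10. Their summed level was 348 to 374 FPKM at D4, 378 to 386 at D6, 687 to 761 at D8 and 891 to 993 at D10. Kdm3a was lower at D10 than at D8 while most of that list was higher. Whether Kdm3a and the list are linked was not tested.

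The other members moved less. Kdm4c was measured at 6.4, 6.48 and 6.79 FPKM at D4, 4.96, 4.76 and 4.61 at D6, 5.47, 6.55 and 5.94 at D8, and 6.37, 6.99 and 6.5 at D10, with D6 the lowest day. It fell by -0.39 ± 0.082 from D4 to D6 (adjusted p = 0.00145) and rose by 0.27 from D6 to D8 (adjusted p = 0.0163), the latter call lost without the third D6 library (0.25) or the second D8 library (0.21). Kdm4a rose by 0.26 ± 0.067 from D4 to D6 (adjusted p = 0.0058) and fell by 0.25 from D8 to D10 (adjusted p = 0.0114), where the first D8 library decided the call (-0.19 without it). Kdm3b was lower at D10 than at D4 by -0.32 ± 0.091 (adjusted p = 0.00681), and Kdm2a rose by 0.30 ± 0.11 from D4 to D6 (adjusted p = 0.0433), a call lost without any 1 of the 6 libraries. Kdm5a, Kdm5b and Kdm6b passed none of these 4 comparisons, and stayed between 10.1 and 13.53, 13.4 and 18.4, and 18.5 and 22.9 FPKM. With a term for gene length, Kdm5b was called lower at D10 than at D4, at -0.26, while Kdm5a and Kdm6b remained without a call. The term also gave calls from D4 to D6 for Kdm1a (-0.18) and Kdm3b (-0.17). It did so for Kdm3b from D6 to D8 (-0.14) and for Kdm2a from D4 to D10 (0.14).

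Set against the gonadal cells of E12.5_GC, every V580 day had less Kdm3a and Kdm4a and more Kdm4c and Kdm5b. At D4, 4 of the 10 genes were higher and 2 lower, against 37.2% and 34.3% of all tested genes (71.6% together). The counts were 5 and 2 at D6, against 35% and 32% (67% together), 4 and 2 at D8, against 32.6% and 30.5% (63.2%), and 2 and 4 at D10, against 36.3% and 33.2% (69.5%). All 4 comparisons share the same 3 E12.5_GC libraries. Kdm3a was measured at 29.5, 31.3 and 41.1 FPKM in E12.5_GC, so that the lowest gonadal library had more than the highest V580 library. The log2 difference was -2.61 ± 0.097 at D4 (adjusted p = 4.85e-12), -1.74 at D6, -1.35 at D8 and -2.03 at D10.

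Kdm4a and Kdm4c, which act on the same marks, differed in opposite directions. Kdm4a was measured at 35, 32.6 and 37.7 FPKM in E12.5_GC and at 17.8 to 24.2 in the 12 V580 libraries, with differences of -0.85 ± 0.067 at D4, -0.59 at D6, -0.64 at D8 and -0.89 at D10 (largest adjusted p = 2.3e-06). Kdm4c was measured at 3.23, 2.97 and 3.99 FPKM in E12.5_GC and at 4.61 to 6.99 in V580 libraries, with differences of 0.79 ± 0.082, 0.40, 0.67 and 0.80 (largest adjusted p = 0.000603). Kdm5b was measured at 10.2, 9.49 and 12.8 FPKM in E12.5_GC and at 13.4 to 18.4 in V580, with differences of 0.54, 0.63 ± 0.094, 0.56 and 0.39 (largest adjusted p = 0.00198). None of these 3 genes overlapped between E12.5_GC and any V580 day.

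During the induction Kdm1a came down to the gonadal level, and Kdm2b fell below it. Kdm1a was measured at 32.7, 33.8 and 29.7 FPKM in E12.5_GC, below D4 by 0.47 and D6 by 0.33 (adjusted p = 2.35e-06 and 8.73e-05), and it did not pass the test at D10. Its difference at D8 was 0.14 (adjusted p = 0.0445), and 0.08 and no longer called without the third E12.5_GC library, a call also lost without any 1 D8 library. Kdm2b was measured at 7.62, 6.49 and 8.27 FPKM in E12.5_GC, below D4 by 0.80 (adjusted p = 1.13e-07) and D6 by 0.42, not called against D8, and above D10 (-0.31, adjusted p = 0.00137). Kdm5a rested partly on the second E12.5_GC library, at 5.77 FPKM beside 9.25 and 11.6 in the others. Its difference at D6 was 0.57 ± 0.15 (adjusted p = 0.0041) and 0.32 without that library. At D8 it was 0.45 (adjusted p = 0.0187), with overlapping libraries, and 0.20 without that library. The D8 call was lost without the third D8 library, at 0.42. Kdm3b at D10 likewise went from -0.31 to -0.19 without the third E12.5_GC library. In the model without a gene length term, Kdm2a and Kdm6b passed in none of the 4 comparisons with all libraries. Without the third E12.5_GC library both were called higher, at 0.35 and 0.36 at D6, 0.41 and 0.29 at D8, and 0.29 and 0.24 at D10. The members called then rose from 7 to 9 at D6 and from 6 to 9 at D10, where Kdm5a was also called, at 0.51. Without that library Kdm5a was called higher at D4 as well, at 0.47. Leaving out the second E12.5_GC library instead gave calls in the other direction, with Kdm2a lower at D4, at -0.27, and Kdm2b lower at D8, at -0.18.

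E12.5_GC also differed in make-up. The 3 erythroid markers present in the table summed to 1038 to 4435 FPKM in E12.5_GC and to 0.0183 to 0.739 in V580 libraries. The 6 granulosa markers summed to 463 to 611 against 40.7 to 93.7 FPKM, and cell cycle markers to 78.7 to 97.4 against 113 to 226. Gene length also followed the spread between the 3 E12.5_GC libraries, with correlations of -0.000219, -0.664 and 0.646 for their deviations from the group mean. The part of the make-up in the differences was not tested. With a term for gene length, the Kdm1a call at D8 was lost, at 0.10, and Kdm2b was called lower there, at -0.18. The term also gave calls at D8 for Kdm2a (0.19) and Kdm3b (-0.26) and at D6 for Kdm3b (-0.12). Kdm5a was called higher with it at D4 and D10, at 0.32 and 0.26.

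In ESCs treated for 24 h or 48 h, Vc lowered Kdm4c at both times and Kdm3a at 48 h, whereas AM580 raised Kdm6b at both times, Kdm3a and Kdm3b at 24 h, and Kdm2b at 48 h. After 24 h of Vc, 1 of the 10 genes was higher and 1 lower, against 7.57% and 5.98% of tested genes (13.6% together). After 24 h of AM580, 4 were higher and 0 lower, against 7.69% and 7.16% (14.8%), and after V580 3 were higher and 3 lower, against 1439 (of 10644) and 15.5% (29%). After 48 h of Vc, 0 were higher and 4 lower, against 6.37% and 6.07% (12.4%). After 48 h of AM580, 3 were higher and 3 lower, against 25.7% and 31.2% (57%), and after V580 2 and 4, against 25.9% and 31.2% (57.1%). The treatments at a given time share the control libraries. Untreated cells themselves changed from 24 h to 48 h, with 3 genes higher and 5 lower, against 32.4% and 33.6% of all genes (66% together).

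**Figure D3:**
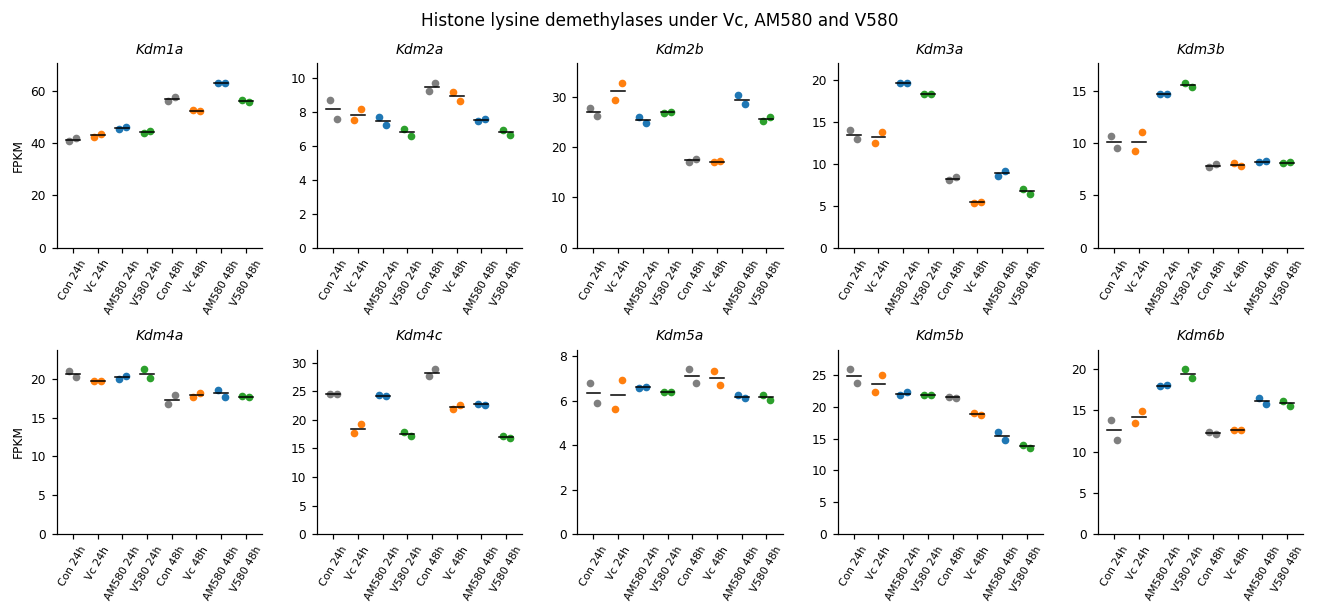
FPKM of the 10 genes in Con, Vc, AM580 and V580 cells at 24 h and 48 h (points, 2 libraries each) with group means, on a scale of its own per gene. At 24 h, Kdm4c lies at 17.2 to 19.2 FPKM with Vc or V580 and at 24.1 to 24.5 in Con or AM580, and Kdm2b at 48 h lies at 25.2 to 30.3 FPKM with AM580 and 17 to 17.6 without it.

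Kdm4c showed the most regular response to Vc. At 24 h it was measured at 24.5 and 24.5 FPKM in Con, 17.7 and 19.2 in Vc, 24.3 and 24.1 in AM580, and 17.8 and 17.2 in V580. At 48 h the values were 27.6 and 28.8, 21.9 and 22.6, 22.8 and 22.6, and 17.1 and 16.8 FPKM. At each time both Vc libraries lay below both Con libraries, and both V580 libraries below both AM580 libraries. The Vc effect was -0.39 ± 0.043 at 24 h (adjusted p = 6.05e-05) and -0.33 ± 0.043 at 48 h (adjusted p = 0.000216). Against AM580 alone, V580 was lower by -0.45 at 24 h (adjusted p = 1.51e-05) and by -0.40 ± 0.043 at 48 h (adjusted p = 1.68e-05). At 24 h Kdm4c was the only 1 of the 10 called between V580 and AM580, where 7.31% of all genes were lower, 7.44% higher and 14.8% either. At 48 h it was 1 of 4 called, all lower, against 10.7% lower, 8.51% higher and 19.2% either.

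The Vc effect was also compared directly between cells with and without AM580. For Kdm4c the difference was -0.05 at 24 h (95% interval -0.19 to 0.08) and -0.07 at 48 h (-0.20 to 0.06). By limma 0 of the 10 genes were called in this comparison at 24 h, where 0.0376% of all genes were, and 0 at 48 h, where 3.61% were. At an unadjusted p under 0.05 the counts were 0 at 24 h and 1 at 48 h, the latter Kdm2b at -0.18 (95% interval -0.33 to -0.02).

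Kdm3a was measured at 14 and 12.9 FPKM in Con, 12.51 and 13.8 in Vc, 19.6 and 19.6 in AM580, and 18.3 and 18.3 in V580 at 24 h. At 48 h it was measured at 8.02 and 8.39, 5.36 and 5.44, 8.58 and 9.09, and 7.02 and 6.4 FPKM. All 48 h values lay below all 24 h values. AM580 raised it by 0.51 ± 0.058 at 24 h (adjusted p = 2.48e-05), and Vc lowered it by -0.52 ± 0.058 at 48 h (adjusted p = 5.38e-05) but gave no called change at 24 h, at -0.03 (95% interval -0.16 to 0.09). The Vc effect differed between the times by -0.49 (adjusted p = 0.00425), and Kdm3a was the only 1 of the 10 for which it did, against 2.9% of all genes. At 48 h V580 was lower than AM580 by -0.35 ± 0.058 (adjusted p = 0.000731). The other 2 genes called there were Kdm1a, at -0.16 (adjusted p = 0.00431), and Kdm2b, at -0.19 (adjusted p = 0.0167), the latter lost without the first AM580_48h library or either V580_48h library.

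Beside Kdm3a and Kdm4c, the list of hypoxia-responsive genes moved in the same libraries. Of the 19 tested, 2 rose and 10 fell with Vc at 24 h, and 2 rose and 11 fell at 48 h. In V580 against AM580, 2 rose and 9 fell at 24 h, and 0 rose and 12 fell at 48 h. The summed level at 48 h was 896 to 905 FPKM in Con, 636 to 646 in Vc, 1034 to 1038 in AM580 and 561 to 570 in V580. Vitamin C is known as a cofactor of the prolyl hydroxylases that mark hypoxia-inducible factors for breakdown. Whether the 2 sets of genes are linked here was not tested.

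The upstream sequences of these 2 genes are shown because their fall under Vc at 48 h was called under every alternative setting. RefSeq's windows of 250 bases before annotated starts (GRCm38.p6) were found for 6 of the 10 genes, 12 windows in all. They were searched on both strands for the hypoxia response core, written ACGTG or GCGTG, where a CACGTG counts once on each strand. Of the 12 windows 7 held a match, and 38.6% of all 32851 windows did. Of the 7, 4 were the windows of Kdm2b, 2 of which overlap almost wholly and share the same 2 matches. Kdm3a has 3 windows, of which the first (chr6:71632918-71633167, minus strand) held 1 match, 27 bases before the start, and the other 2 held 0. The window before the first Kdm4c start (chr4:74242247-74242496, plus strand) held 0, and that before the second (chr4:74251629-74251878, plus strand) held 6, a number reached by 0.417% of all windows. Those lay 84, 52 and 42 bases before the start on the gene's strand and 85, 53 and 32 on the other, with the pairs at neighbouring positions in the same CACGTG. Capitals mark the matches, and a match is a description of letters, not a binding site.
Kdm3a, first start: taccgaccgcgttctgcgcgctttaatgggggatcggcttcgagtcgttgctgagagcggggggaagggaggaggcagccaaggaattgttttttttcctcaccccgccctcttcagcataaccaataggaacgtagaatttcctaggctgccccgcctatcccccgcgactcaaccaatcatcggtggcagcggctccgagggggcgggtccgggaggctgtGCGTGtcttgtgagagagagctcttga
Kdm4c, first start: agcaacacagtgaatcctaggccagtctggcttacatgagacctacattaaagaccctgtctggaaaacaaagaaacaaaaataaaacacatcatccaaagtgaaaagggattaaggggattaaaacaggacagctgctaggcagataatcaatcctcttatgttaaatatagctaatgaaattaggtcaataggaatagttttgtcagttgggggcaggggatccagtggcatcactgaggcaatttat
Kdm4c, second start: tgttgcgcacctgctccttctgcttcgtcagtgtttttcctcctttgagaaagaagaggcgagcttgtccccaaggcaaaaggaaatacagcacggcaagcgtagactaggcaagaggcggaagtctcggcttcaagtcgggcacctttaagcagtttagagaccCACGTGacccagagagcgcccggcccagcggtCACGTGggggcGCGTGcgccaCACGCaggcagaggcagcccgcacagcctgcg

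Kdm2b, the CpG island reader, responded to AM580 late. At 24 h it was measured at 27.7 and 26.2 FPKM in Con, 29.4 and 32.8 in Vc, 26 and 24.8 in AM580, and 26.9 and 27 in V580. At 48 h the values were 17.1 and 17.6, 17 and 17.2, 30.3 and 28.6, and 25.2 and 26 FPKM. The untreated level thus fell with time, by -0.61 (adjusted p = 8.01e-08), and both AM580 groups stayed near the 24 h level. AM580 gave 0.73 ± 0.052 at 48 h (adjusted p = 2.41e-08) and V580 0.54 (adjusted p = 6.79e-07). The AM580 effect differed between the times by 0.81 ± 0.073 (adjusted p = 1.23e-06). Its small Vc effect at 24 h, 0.20 ± 0.052 (adjusted p = 0.0206), lost its call without the second library of Con_24h or of Vc_24h, and was 0.12 without the latter.

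Kdm6b was measured at 13.9 and 11.5 FPKM in Con, 13.503 and 14.9 in Vc, 17.9 and 18.1 in AM580, and 20 and 18.9 in V580 at 24 h, and at 12.3 and 12.1, 12.7 and 12.6, 16.46 and 15.7, and 16.1 and 15.6 FPKM at 48 h. Every library with AM580 lay above every library without it at both times. The AM580 effect was 0.48 ± 0.068 at 24 h (adjusted p = 0.000179) and 0.37 at 48 h (adjusted p = 0.000341), and the V580 effect 0.59 and 0.35 (adjusted p = 1.38e-05 and 0.000533). Kdm3b had an effect at 24 h, where it was measured at 10.7 and 9.58 FPKM in Con, 9.22 and 11 in Vc, 14.7 and 14.7 in AM580, and 15.8 and 15.4 in V580. AM580 raised it by 0.50 ± 0.067 and V580 by 0.58 (adjusted p = 0.000113 and 1.43e-05). At 48 h all 8 Kdm3b values lay between 7.71 and 8.27 FPKM and none of the treatments was called.

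Kdm5b was lowered by AM580 at 48 h. It was measured then at 21.5 and 21.4 FPKM in Con, 19 and 18.6 in Vc, 16 and 14.8 in AM580, and 14 and 13.6 in V580, in that order without overlap. AM580 gave -0.46 ± 0.056 (adjusted p = 7.22e-06) and V580 -0.60 (adjusted p = 4.45e-07). The effect of Vc alone, -0.18 (adjusted p = 0.0465), lost its call without any 1 of the 4 libraries. Kdm4c was also lowered by AM580 at 48 h, by -0.30 (adjusted p = 3.47e-05), and by V580, by -0.70 ± 0.043 (adjusted p = 4.8e-09). Markers of extraembryonic endoderm rose with AM580 at 48 h, with 7 of 7 called higher, and were lower in V580 than in AM580, with 7 of 7 called. Their part in the changes of Kdm4c and Kdm5b was not tested.

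Of the remaining genes Kdm1a, Kdm2a, Kdm4a and Kdm5a, Kdm2a responded most, at 48 h of AM580 or V580. Kdm1a was measured at 56.2 and 57.5 FPKM in Con and 63.1 and 62.9 in AM580 at 48 h, and rose with AM580 by 0.14 at 24 h and 0.15 at 48 h (adjusted p = 0.0123 and 0.00226), the former lost without the second AM580_24h or the first Con_24h library. It fell with Vc by -0.11 at 48 h (adjusted p = 0.046), a call lost without any 1 of the 4 libraries. Kdm2a was measured at 9.26 and 9.73 FPKM in Con, 9.17 and 8.68 in Vc, 7.46 and 7.57 in AM580, and 6.97 and 6.66 in V580 at 48 h, lower with AM580 by -0.30 and with V580 by -0.43 (adjusted p = 0.00107 and 5.71e-05). At 24 h its V580 effect was -0.23 (adjusted p = 0.0144) and that of Kdm5b -0.17 (adjusted p = 0.0301). Without the first Con_24h library they were -0.15 and -0.11, neither called. The Kdm2a call was also lost without the second V580_24h library, at -0.19. That of Kdm5b was also lost without either V580_24h library, at -0.17, and with median-ratio scaling, at -0.16. In untreated cells, Kdm1a rose by 0.45 from 24 h to 48 h (adjusted p = 2.61e-08), Kdm4c by 0.20 (adjusted p = 0.00109), and Kdm3a fell by 0.65 (adjusted p = 1.47e-07). Kdm2a rose by 0.20 (adjusted p = 0.0142), and by 0.11, no longer called, without the second Con_24h library. That call was also lost without the second Con_48h library, at 0.16. Kdm4a and Kdm5a passed no comparison of a treatment with its control, and stayed between 16.7 and 21.2 and between 5.63 and 7.41 FPKM. With a term for gene length, Kdm5a was called lower at 48 h with AM580, at -0.14, and with V580, at -0.17.

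**Figure D4:**
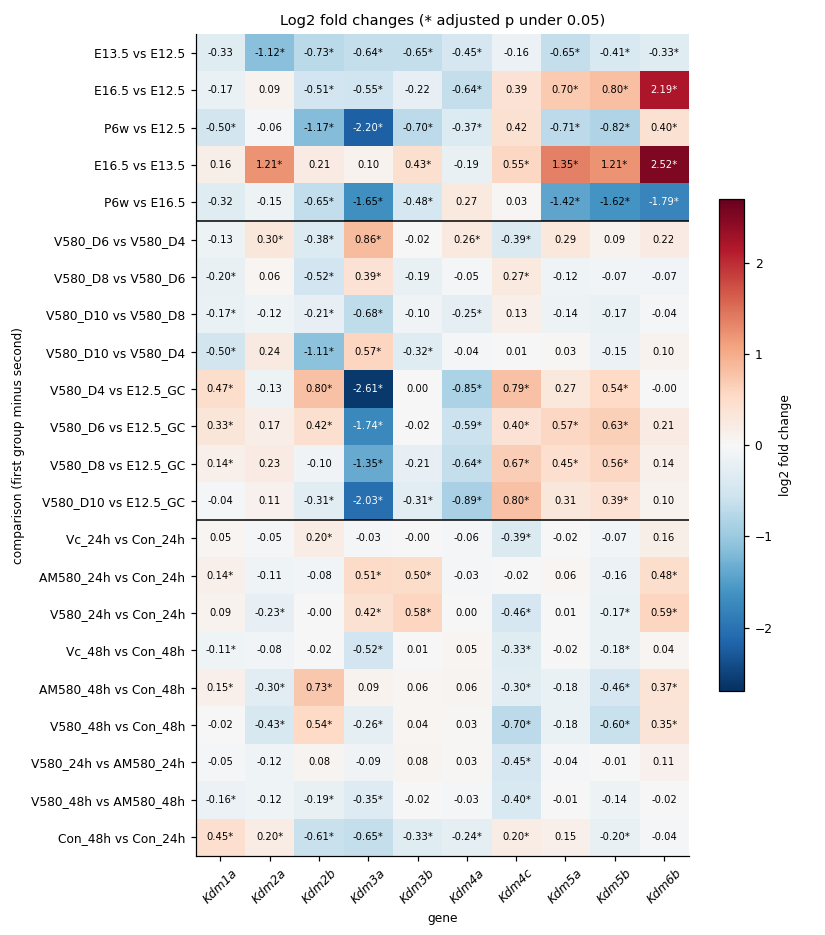
Log2 change of each of the 10 genes in each of the 22 comparisons of 2 groups, with the changes that passed the test (BH adjusted p below 0.05) marked. The strongest rise is Kdm6b from E13.5 to E16.5 (2.52) and the strongest fall Kdm3a in V580_D4 against E12.5_GC (-2.61).

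In the 10x sample of V580_D6, 15315 of 15412 barcodes were kept and fell into 12 clusters. The paper describes 10x sequencing in triplicate, whereas the labels give 1 sample and do not say whether its cells came from more than 1 culture. With 1 sample there was no test, and the exact Poisson 95% intervals given in brackets cover counting error only. The counts are of 3' ends, so that levels were compared between clusters for 1 gene at a time. Over all cells, Kdm5b had 221 CPM of UMIs [219 to 224] and Kdm4c, the scarcest, 19.0 [18.3 to 19.7]. The clusters were formed with these genes among all others, so that the values describe clusters and test nothing.

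Kdm5b varied most among the 5 large clusters with the most UMIs per cell. It had 107 CPM [103 to 111] in the extraembryonic endoderm-like cluster of 928 cells, which held all 7 of its fixed markers at 2-fold or more. It had 277 [271 to 284] in the interstitial-like cluster of 1482 cells, led by Actg2, Lum and Col1a1. In the cluster of 3125 cells led by Aqp5, Igfbp5 and Upk3b it had 277 [272 to 282]. The name interstitial-like is kept here for the cluster of 1482 cells. Another, of 1314 cells with medians of 2064 UMIs and 15.4% mitochondrial counts, also held 3 interstitial markers at 2-fold or more. In the cluster led by Wfdc2 and Wnt6, with 1052 cells, Kdm5b reached 305 [297 to 313]. Its lowest level was 70.0 [61.4 to 79.4] in the cluster led by Cited1 and S100g, with 1009 cells and a median of 2214 UMIs per cell against 9281 over all cells. Kdm5a was also lower in the extraembryonic endoderm-like cluster, at 92.7 [88.8 to 96.7] against 129 [124 to 133] in the interstitial-like one.

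Kdm4c went the other way, with 27.2 CPM [25.1 to 29.4] in the extraembryonic endoderm-like cluster and 16.2 [14.6 to 17.9] in the interstitial-like one. A second extraembryonic endoderm-like cluster, of 270 cells with a median of 2367 UMIs and led by Lama1, had 45.3 [32.4 to 61.7]. When cells with over 20% mitochondrial counts were left out, it was not a separate cluster, and the single extraembryonic endoderm-like cluster, of 1117 cells, had 27.8 [25.7 to 30.0]. Kdm1a and Kdm6b were highest in the neuron-like cluster of 66 cells, at 386 [339 to 437] and 149 [121 to 182], against 211 [209 to 214] and 66.7 [65.4 to 68.0] over all cells. Kdm3a had 25.7 [23.7 to 27.9] in the extraembryonic endoderm-like cluster, 28.6 [26.4 to 30.8] in the interstitial-like one and 34.9 [33.0 to 36.9] in the cluster of 1968 cycling cells. Kdm2b was also higher in the cycling cells, at 64.3 [61.7 to 67.0], than in the interstitial-like ones, at 46.8 [44.1 to 49.7]. The Cited1 and S100g cluster had the lowest level of all 12 for every one of the 10 genes except Kdm4c.

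**Figure D5:**
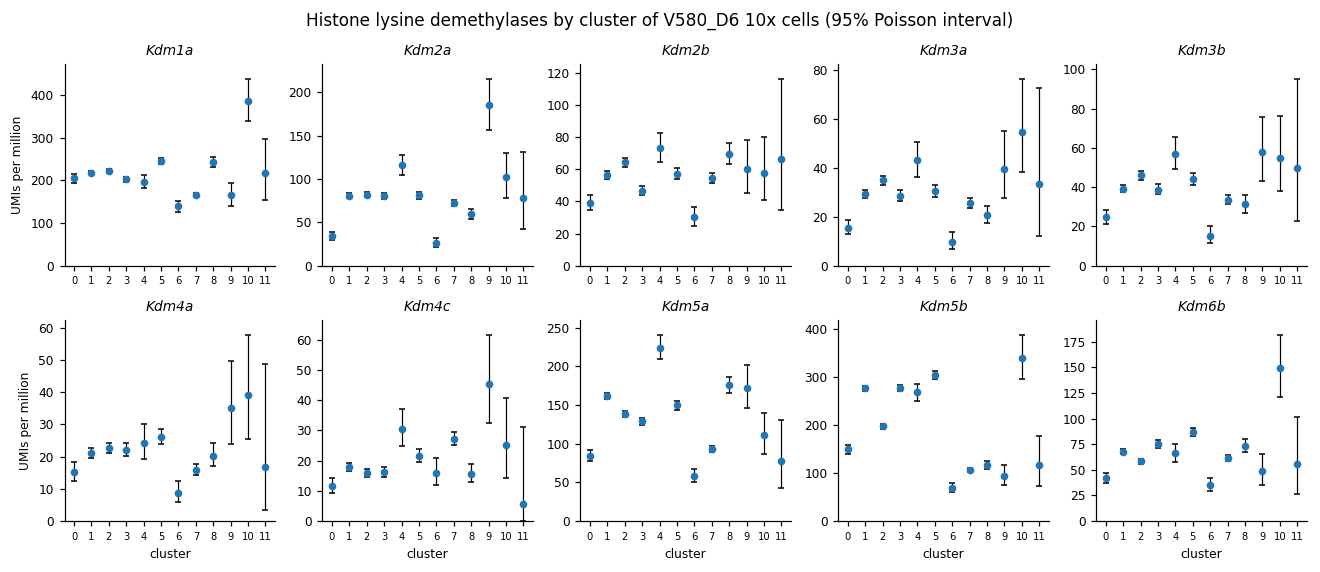
CPM of UMIs of each of the 10 genes in the clusters of V580_D6 cells, with exact Poisson 95% intervals (bars), on a scale of its own per gene. Kdm5b lies at 107 in the extraembryonic endoderm-like cluster 7 against 277 in the interstitial-like cluster 3, and Kdm4c at 27.2 against 16.2; cluster 6 is led by Cited1 and S100g and cluster 10 is neuron-like.

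The 16 other histone demethylase genes and the writers and partners of the same marks gave a setting for these values. Of all tested genes, 25.4% were higher and 27.5% lower at P6w than at E12.5, and 31.3% and 33.1% at D10 than at D4. The shares were 35% and 32% at V580_D6 against E12.5_GC, and 25.9% and 31.2% after V580 for 48 h. The list counts given here and below were not tested against these shares. Of the other demethylases, 1 of 15 tested was higher and 6 lower at P6w than at E12.5, among them Kdm1b, the second FAD-dependent enzyme, at -1.06 (adjusted p = 0.00209). The Y-linked Kdm5d and Uty were among the 6, with a mean of 2.89 and 0.743 CPM at E12.5 and 0.0408 and 0 at P6w. From D4 to D10, 5 of 11 rose and 4 fell, with Hr, an H3K9 demethylase of hair follicles, up by 1.56, Kdm4b, a relative of Kdm4a, up by 0.73 and Kdm8 down to -0.80. Between V580_D6 and E12.5_GC, 3 were higher and 4 lower, with Hr at 1.03, Phf8 at -0.86 and Kdm4b at -0.70. After V580 for 48 h, 3 of 10 were higher and 6 lower, with Kdm8 at 0.54, Jmjd1c, the third gene of the Kdm3 family, at -0.48, and Jmjd6 at -0.44.

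Among the partners of Kdm1a in the CoREST complex, 2 of 12 were higher and 7 lower at P6w than at E12.5, 4 of 11 higher and 4 lower at D10 than at D4, and 3 of 10 higher and 3 lower after V580 for 48 h. Rcor2, a CoREST scaffold of stem cells, fell in each of these, at -1.85, -1.42 and -0.60 (largest adjusted p = 1.58e-05), and the deacetylase Hdac1 was lower at D10 than at D4 by -1.61. Between V580_D6 and E12.5_GC, 3 of 11 were higher and 4 lower, with Zmym3 at -1.25 and Gse1 at 1.01. Of the 9 genes of the PRC1.1 complex around Kdm2b, 1 was higher and 3 lower at P6w, 2 and 2 at D10, 4 and 2 at V580_D6 against E12.5_GC, and 2 and 5 after V580 for 48 h. There the PRC1.1 scaffold Bcor fell to -1.03 (adjusted p = 4.22e-08) while Kdm2b was higher.

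Of the 11 genes of the H3K27 methyltransferase complex PRC2, which writes the mark that Kdm6b removes, 3 were higher and 5 lower at P6w, with Jarid2 at -1.15 and Rbbp7 at 0.97. From D4 to D10, 3 rose and 6 fell, with the catalytic subunit Ezh2 at -0.90 and Mtf2 at -0.88. At V580_D6 against E12.5_GC, 7 were higher and 1 lower, with Phf1 at -1.47, and after V580 for 48 h 4 were higher and 4 lower. Of 6 H3K9 methyltransferases, 0 were higher and 3 lower at P6w (Ehmt1 -0.74), 1 and 4 at D10 against D4 (Suv39h2 -0.998), 4 and 1 at V580_D6 against E12.5_GC, and 1 and 3 after V580 (Setdb1 -0.40). Of 9 H3K4 methyltransferases, 0 were higher and 1 lower at P6w (Kmt2c -0.61), and among the 8 tested by FPKM the counts were 0 and 1, 1 and 1, and 1 and 3 in the same order. Of 6 H3K36 methyltransferases, 0 were higher and 4 lower at P6w (Setd2 -1.01), and among the 4 tested by FPKM the counts were 2 and 0, 0 and 1, and 1 and 0, with Smyd2 at 0.92 after V580.

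The 10 genes did not move as 1 group. The 13 group means of the FPKM table share tables and controls. They cover both the treatments and the days with E12.5_GC, so that a gap between these sets enters the correlations. Over these means the Pearson correlation of log2 FPKM plus 1 was highest between Kdm2b and Kdm4c (0.84) and between Kdm2a and Kdm5a (0.82). It was lowest between Kdm2b and Kdm5a (-0.87) and between Kdm4c and Kdm5a (-0.86). Among 11819 genes, the most alike to each by the same measure were Map7d2 for Kdm1a (0.96), Man2b1 for Kdm2a (0.97), Polrmt for Kdm2b (0.98), S1pr1 for Kdm3a (0.92) and Atad2b for Kdm3b (0.95). For the other 5 they were Fam96a for Kdm4a (0.98), Cmas for Kdm4c (0.99), Arfgef1 for Kdm5a (0.99), Phf20 for Kdm5b (0.96) and Slain2 for Kdm6b (0.94). The next genes in each ranking were Syt3 and Dhrs7b, Btbd3 and Ptk7, Pole4 and Coil, Qpctl and Itpr3, Ptp4a2 and Aqp3, Sufu and Akna, Yme1l1 and Nop14, Nr2f1 and Mob1b, Pex13 and Gdpgp1, and Zmiz1 and Tctn1, in the same order of demethylase genes.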

How the data were processed

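Per the labels' processing notes, the authors trimmed reads with Trim Galore, checked them with FastQC and used HISAT2, SAMtools, featureCounts and RSEM on mm10. For the 4 stages, raw counts by gene symbol were deposited, from HISAT2 and featureCounts per the paper. For the V580 days and treatments, FPKM values were deposited, and which tool made them is not given in the sources used here. For 1 10x sample, a matrix of UMI counts from Cell Ranger was deposited. In the FPKM table, columns marked X580 were read as AM580 and C as Vc. A further table with 10 value columns, which could not be matched to samples, and the cells of other samples were not used here.

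The counts were tested with edgeR 4.0.16 (R 4.3.3; filterByExpr, TMM, quasi-likelihood F test, 1 model of 8 libraries). Genes that reached an FPKM of 1 in 3 or more libraries (days, 15 in 1 model) or in 2 or more (treatments, 16 in 1 model) entered limma-trend (limma 3.58.1) as log2 of FPKM with a pseudocount of 1. The threshold was a BH adjusted p below 0.05 over all genes tested. Barcodes with 200 or more genes and no more than 40% mitochondrial UMIs were clustered with scanpy 1.11.5 and leidenalg 0.10.2 (2000 variable genes, 20 components, 20 neighbours, resolution 0.5, seed 0), without a step for doublets. A cluster was named from at least 3 of its fixed markers at 2-fold or more. All 10 genes were named in each comparison, and of other lists up to 3 called genes with the largest change in 4 comparisons; the list counts of the other comparisons and genes such as those leading clusters were added. The members and lists were chosen with earlier results of these data known. The procedures were tested on simulated data. DESeq2 1.42.0, median-ratio scaling, other filters, a pseudocount of 0.1, a term for gene length (GENCODE vM21, GRCm38; 98.6% of stage genes matched), a replicate block and leaving out each library were tried as alternatives. The fragments behind FPKM were estimated from the step between low values. No promoter window was found for Kdm2a, Kdm3b, Kdm5a and Kdm6b.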

Additional observations from a re-analysis of the deposited data

Results flagged for a closer look

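For 5 of the 10 genes the effect of a treatment differed between 24 h and 48 h, tested as the difference of the 2 effects in the same limma model. For Kdm3a, the difference (48 h minus 24 h, log2 scale, BH adjusted limma p) was -0.49 ± 0.083 (SE) for Vc (limma adjusted p = 0.00425), -0.42 for AM580 (limma adjusted p = 0.00141) and -0.67 for V580 (limma adjusted p = 2.6e-05). For Kdm2b it was 0.81 ± 0.073 for AM580 (limma adjusted p = 1.23e-06) and 0.54 for V580 (limma adjusted p = 6.65e-05). For Kdm3b it was -0.44 for AM580 (limma adjusted p = 0.00252) and -0.53 for V580 (limma adjusted p = 0.000635). For Kdm4c it was -0.29 for AM580 (limma adjusted p = 0.00243) and -0.24 for V580 (limma adjusted p = 0.00729), and for Kdm5b -0.29 (limma adjusted p = 0.00991) and -0.43 (limma adjusted p = 0.000846). Among all tested genes 2.9% passed for Vc, 35% for AM580 and 33.9% for V580. The 3 comparisons share the control libraries of both times.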

How the results depend on the processing

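Of the 117 calls among the 10 genes over the 22 comparisons of 2 groups, 86 were made under every alternative and without each library. The gene length term moved the count at E13.5 against E12.5 from 8 to 2, with Kdm3b at 0.12, Kdm5a at 0.12, Kdm5b at 0.45 and Kdm6b at 0.036 reversed, gave Kdm3b -0.32 for E16.5 against E13.5, and moved the count for the Vc effect at 48 h minus 24 h from 1 to 2. For Vc at 48 h, the count of 4 became 2 with median-ratio scaling and 2 with the replicate block. With the block, D8 against E12.5_GC had 3 higher and 3 lower in place of 4 and 2, with Kdm1a at 0.14 no longer called and Kdm3b at -0.21 called lower, as it also was with the length term (-0.26) and without the second E12.5_GC library (-0.34). Same-numbered libraries did not deviate together throughout (correlations from -0.431 to 0.386), so that the numbers were not taken as pairs. Leaving out 1 library gave counts of 4 to 6 for E13.5, 5 to 6 for E16.5 and 5 to 6 for P6w against E12.5, 4 to 7 for E16.5 against E13.5 and 4 to 7 for P6w against E16.5. It gave 1 to 3 for D10 against D8, 1 to 3 for Vc at 24 h, 2 to 2 for Vc at 48 h, and 1 to 2 for the Vc effect at 48 h minus 24 h. For D10 against D8 (4 calls), the count was 2 without the first or second D10 library and 1 without the first D8 library. For P6w against E12.5 (8 calls), it was 5 without the first E12.5 library. No called log2 change of a gene changed sign when a library was left out.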
